A study of Homo sapiens with 4 samples.

Results

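The genes described here encode secreted proteins of the extracellular matrix that signal to cells or build and cross-link its fibres: TNC, THBS1, SPARC, SPP1, POSTN, FN1, FBLN1, FBN1, LOX and LOXL2. Their probe sets were taken from the array's annotation wherever it gave 1 of these 10 symbols alone, which gave 40 of the 54613 probe sets that are not controls. No probe set gave a member symbol together with another. Expression had been measured in SW480, an established line from a colorectal adenocarcinoma that the labels describe as Duke's type B. All 4 samples were grown in the same serum-containing medium and were transduced to change the homeobox transcription factor gene HOXA5. The arrays comprised 2 of cells with HOXA5 knock down (KD) and 2 of HOXA5 overexpressing (OE) cells, with no untransduced or vector control. The labels do not give the vector, the hairpin, the time after transduction or whether lines were clonal, nor whether replicates were separate cultures, so the p-values measure the spread between these arrays, which may be technical.

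Matricellular proteins such as tenascin-C, thrombospondin-1, SPARC, osteopontin and periostin bear little load themselves. They bind growth factors, collagens and cell surface receptors, and many are made mainly during development, wound healing and in tumour stroma. Fibronectin and fibrillin-1 build fibrils that carry these proteins, and fibulin-1 is found in fibronectin fibrils and elastic fibres. The copper-dependent lysyl oxidases LOX and LOXL2 oxidise lysines in collagen and elastin so that fibres become covalently linked. In colorectal tumours many of these proteins come largely from fibroblasts, but cancer cells can make several of them.

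The values were RMA log2 expression, and array medians lay between 5.77 and 5.81. Arrays of the same group correlated at 0.997 over all probe sets and arrays of different groups at 0.991 to 0.993. No probe set of the table used here was named HOXA5, so the manipulated gene is not reported here. Every difference below is OE minus KD, so none can be assigned to the gain or to the loss of HOXA5 alone. As RMA gives no detection call, a fold measured from a low value depends on the floor of the scale. Levels of different probe sets were not used to compare amounts of transcript. They served to pick the probe set of a gene with the highest mean and to describe low values and markers.

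Of the 40 probe sets, 5 were higher and 1 was lower in the OE arrays at a limma adjusted p under 0.05, and 34 did not pass. Over all 54613 probe sets, 1.36% were called higher and 0.613% lower, or 1.97% in either direction. The 5 calls upward came from THBS1 (4) and TNC (1), so they are not independent, and the call downward came from LOXL2. Counted by the probe set with the highest mean, 3 of the 10 genes passed, compared with 2.86% of all 19775 genes. The members were chosen with earlier results of these data known, so these shares cannot test whether they differ from other genes. The median difference over the 40 probe sets was -0.023, close to the -0.015 of all probe sets. Regardless of sign, the median difference between the groups was 0.17 over the 40 and 0.096 over all probe sets. The OE and KD values did not overlap in 18 of the 40 probe sets (45%), a share near the 43.1% of all probe sets. Between arrays of 1 group the median gap over the 40 probe sets was 0.19 in the KD pair and 0.13 in the OE pair. Over all probe sets it was smaller, at 0.10 in the KD pair and 0.11 in the OE pair.

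**Figure D1:**
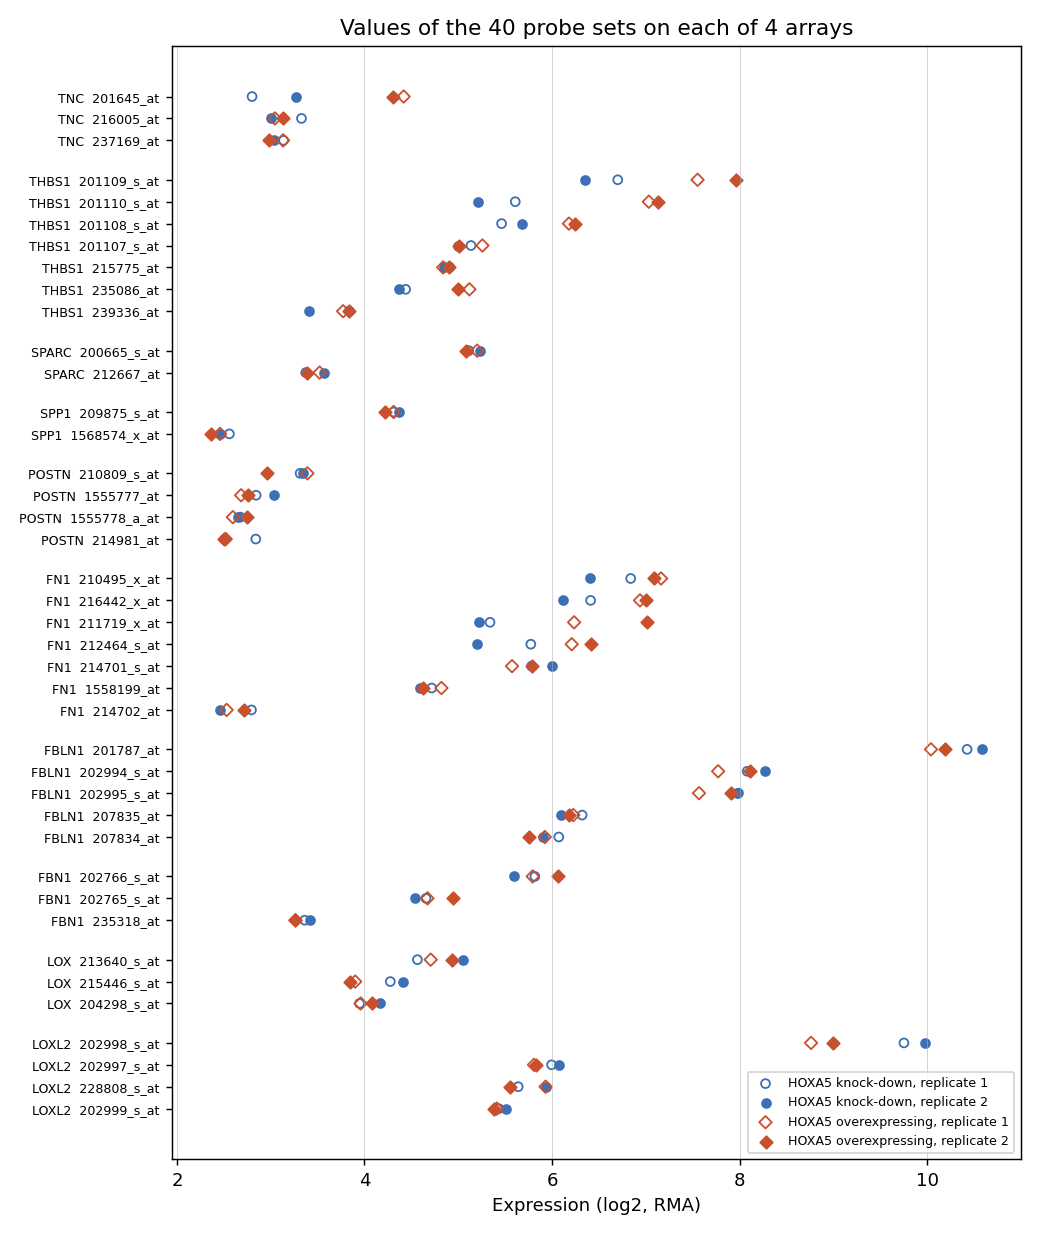
Expression (log2, RMA) of the 40 probe sets on each of the 4 arrays, with circles for the 2 KD and diamonds for the 2 OE arrays, open for replicate 1 and filled for replicate 2. The groups stand clearly apart for TNC 201645_at, for THBS1 201109_s_at and 201110_s_at and for LOXL2 202998_s_at, whereas the groups overlap on all SPARC and SPP1 probe sets.

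THBS1, which encodes thrombospondin-1, a trimeric glycoprotein that activates latent TGF-beta and binds CD47 and CD36, rose in the OE arrays on 4 of its 7 probe sets. The probe set with the highest mean, 201109_s_at, read 6.70 and 6.35 in the KD arrays and 7.55 and 7.97 in the OE arrays. Both OE values were above both KD values, a difference of 1.23 ± 0.18 (SE, n = 2 per group), or 2.35-fold, at a limma adjusted p of 0.0316. The largest difference was on 201110_s_at, with 5.61 and 5.21 in KD cells and 7.03 and 7.13 in OE cells. This is 3.19-fold (log2 difference 1.67 ± 0.14, SE, limma adjusted p = 0.00515), and the gap between the groups was several times the gaps of 0.40 and 0.10 between replicates. On 201108_s_at the KD values were 5.46 and 5.68 and the OE values 6.18 and 6.24, a 1.56-fold rise (limma adjusted p = 0.0449). On 235086_at they were 4.44 and 4.37 against 5.12 and 5.002, a 1.58-fold rise (limma adjusted p = 0.0258).

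The other 3 THBS1 probe sets (201107_s_at, 215775_at and 239336_at) differed by -0.012 to 0.18, with limma adjusted p from 0.665 to 0.983. Their values lay between 3.41 and 5.26 on all arrays, and KD and OE values overlapped on each. The rise of THBS1 was thus measured by probe sets at 4.37 to 7.97 and not by 3 others of the same gene. Averaged over all 7 probe sets, the gene differed by 0.63 (limma adjusted p over genes = 0.00835). THBS1 was therefore called both by its brightest probe set and by the mean of all of them.

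TNC, which encodes tenascin-C, a hexameric glycoprotein that loosens cell attachment and is made in healing wounds and tumour stroma, rose on 1 of its 3 probe sets. On 201645_at the KD arrays read 2.80 and 3.27 and the OE arrays 4.42 and 4.31. The groups did not overlap, and the difference was 1.33 ± 0.16 (SE, n = 2 per group), or 2.51-fold, at a limma adjusted p of 0.0179. All 4 values were below the median of their arrays, and the gap of 0.47 between the KD arrays was wider than the 0.11 between the OE arrays. On 216005_at the values were 3.33 and 2.999 in KD and 3.04 and 3.13 in OE cells. On 237169_at they were 3.14 and 3.03 in KD and 3.13 and 2.98 in OE cells. The groups overlapped on both of these, with differences of -0.074 and -0.026.

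The bases before the RefSeq start sites of THBS1 and TNC are shown because these are the members that rose. They are the 250 bases before each start in build GRCh38.p14, 5′ to 3′ on the strand of the gene, at chr15:39580829-39581078 on the plus strand and chr9:115118158-115118407 on the minus strand. Capitals mark the motifs found on either strand, which may overlap: TATAAA (a core promoter box), TAAT (the core of homeodomain sites, the class of HOXA5), TGANTCA (AP-1 site), CAAAG (core of TCF/LEF sites, the factors of Wnt signalling), GGGCGG (GC box) and the letters CCAAT, a site of the factor NF-Y.
THBS1: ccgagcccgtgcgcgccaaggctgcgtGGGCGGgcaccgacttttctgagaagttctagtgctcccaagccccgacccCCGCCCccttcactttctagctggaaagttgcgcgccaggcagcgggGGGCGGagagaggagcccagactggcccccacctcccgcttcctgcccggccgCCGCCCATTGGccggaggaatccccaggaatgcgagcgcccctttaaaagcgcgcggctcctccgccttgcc
TNC: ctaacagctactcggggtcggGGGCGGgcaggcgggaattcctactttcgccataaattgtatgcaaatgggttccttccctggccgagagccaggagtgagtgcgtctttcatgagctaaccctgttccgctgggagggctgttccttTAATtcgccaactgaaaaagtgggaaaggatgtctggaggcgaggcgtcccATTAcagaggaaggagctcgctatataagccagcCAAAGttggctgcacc
In these windows THBS1 held 4 GC boxes and 1 CCAAT box, and neither TAAT nor CAAAG. The TNC window held TAAT at positions -101 to -98 and -50 to -47 from the start site, CAAAG at -16 to -12 and GGGCGG at -229 to -224. Over the same window of 35116 RefSeq start sites, TAAT was found in 47.4%, CAAAG in 42.1%, GGGCGG in 42.6%, CCAAT in 32.0%, TATAAA in 10.7% and TGANTCA in 6.57%. Of the 9 members matched in that table, 6 held TAAT (FBLN1, FBN1, LOX, POSTN, SPP1 and TNC) and 5 held CAAAG (FBN1, LOX, POSTN, SPARC and TNC) before at least 1 start site. LOXL2 was not matched. These matches are short letter strings, common in all promoters, and do not show binding.

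None of the 8 probe sets of SPARC, SPP1 and POSTN passed in limma, and 0 of them had an unadjusted p under 0.05, compared with 14.6% of all probe sets. SPARC, a collagen-binding glycoprotein of bone and stroma, read 5.11 and 5.24 in KD and 5.20 and 5.08 in OE cells on its probe set with the higher mean, 200665_s_at. The values of the groups overlapped, and the difference was -0.034 with a 95% interval of -0.26 to 0.20. SPP1 encodes osteopontin, a ligand of integrins and CD44, and read 4.31 and 4.37 in KD and 4.31 and 4.22 in OE cells on 209875_s_at. Its difference was -0.074, with a 95% interval of -0.28 to 0.13. POSTN encodes periostin, a fasciclin-domain protein of stroma that binds collagen and helps LOX become active. Its 4 probe sets gave values of 2.50 to 3.39 on all arrays, the lowest part of the scale. On 210809_s_at it read 3.31 and 3.34 in KD and 3.39 and 2.97 in OE cells, so that the KD values lay between the OE values. On 1555777_at both OE values (2.68 and 2.76) were below both KD values (2.84 and 3.03), a difference of -0.22 that did not pass (limma adjusted p = 0.391). Over the 8 probe sets of these 3 genes the 95% intervals reached from -0.51 to 0.24, so larger shifts of the measured values lay outside the intervals. For values this low, a change of the transcript may not show on the array.

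FN1, which encodes fibronectin, the dimeric glycoprotein whose fibrils anchor cells through integrins, did not pass on any of its 7 probe sets, but 4 of them had OE values above both KD values. On 210495_x_at, which had the highest mean, the KD arrays read 6.84 and 6.40 and the OE arrays 7.16 and 7.09 (difference 0.51 ± 0.15, SE, n = 2 per group, limma adjusted p = 0.207). On 216442_x_at they read 6.41 and 6.11 against 6.94 and 7.004 (difference 0.71, limma adjusted p = 0.0521). The widest difference, 1.34 ± 0.24 (SE), was on 211719_x_at, with 5.34 and 5.22 in KD and 6.24 and 7.01 in OE cells (limma adjusted p = 0.0643). There the 2 OE arrays lay 0.77 apart, the widest gap between replicates in either group among the 40 probe sets.

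The fourth, 212464_s_at, read 5.77 and 5.20 in KD and 6.21 and 6.41 in OE cells (difference 0.82, limma adjusted p = 0.127). The remaining FN1 probe sets differed by -0.21 (214701_s_at), 0.067 (1558199_at) and -0.007 (214702_at), and their groups overlapped. All 4 FN1 probe sets with separate groups had an unadjusted p under 0.05. Of these, 216442_x_at and 211719_x_at passed with arrays centred on their medians (limma adjusted p = 0.0307 and 0.0341) and after a second quantile normalization (0.0340 and 0.0445). They also passed with an intensity trend and robust moderation (0.0115 and 0.00926) and among only probe sets with 1 gene symbol (0.0395 and 0.0491). With the replicate number as a block they did not pass (0.140 and 0.155), so the call on FN1 depends on the processing and the model. Probe sets whose names end in _x_at, 3 of the 7 here, can hold probes that also match other transcripts.

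FBLN1, encoding fibulin-1, a calcium-binding glycoprotein found in fibronectin fibrils and elastic fibres, had differences below 0 on all 5 of its probe sets, from -0.39 to -0.008, and none passed in limma. On 201787_at the KD arrays read 10.43 and 10.58 and the OE arrays 10.04 and 10.19. Both OE values were below both KD values, with a difference of -0.39 ± 0.10 (SE, n = 2 per group, limma adjusted p = 0.156). This probe set was the only one of the 5 with an unadjusted p under 0.05, and it passed with an intensity trend and robust moderation together. On 202995_s_at both OE values (7.57 and 7.91) were also below both KD values (7.99 and 7.98), with a difference of -0.25 (limma adjusted p = 0.453). On 202994_s_at the KD arrays read 8.08 and 8.27 and the OE arrays 7.77 and 8.11, so the groups overlapped. FBN1 encodes fibrillin-1, the main protein of the microfibrils on which elastin is laid down. Its values on 202766_s_at were 5.82 and 5.59 in KD and 5.79 and 6.07 in OE cells, which overlap. The groups did not overlap on the other two probe sets, which differed in opposite directions. On 202765_s_at the KD values were 4.66 and 4.54 and the OE values 4.67 and 4.94, and on 235318_at they were 3.36 and 3.42 against 3.26 in both OE arrays. The 3 FBN1 probe sets differed by -0.13 to 0.23, none had an unadjusted p under 0.05 in limma, and the lowest adjusted p was 0.494.

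LOXL2, lysyl oxidase-like 2, a cross-linker of fibrillar and basement membrane collagen, fell on 1 of its 4 probe sets. On 202998_s_at, which had the highest mean, the KD arrays read 9.75 and 9.98 and the OE arrays 8.76 and 8.99. The groups did not overlap, with gaps of 0.22 and 0.23 between replicates. The OE arrays were 1.98-fold lower (log2 difference -0.99 ± 0.12, SE, n = 2 per group, limma adjusted p = 0.0197). The values of the other 3 probe sets lay between 5.39 and 6.07 and differed by -0.045 to -0.22, with limma adjusted p from 0.307 to 0.952. On 202997_s_at (unadjusted p = 0.0395 in limma) and 202999_s_at both OE values were below both KD values. Averaged over the 4 probe sets, the difference was -0.33 (limma adjusted p over genes = 0.0785), so 1 probe set passed and the mean of all 4 did not. A probe set annotated to the antisense RNA named for the gene, LOXL2-AS1, read 6.19 and 5.91 in KD and 5.95 and 5.96 in OE cells, which overlap.

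LOX, the founding lysyl oxidase, which acts on collagen and elastin, did not pass on any of 3 probe sets. On 213640_s_at, with the highest mean, it read 4.56 and 5.05 in KD and 4.71 and 4.93 in OE cells, the OE values lying between the KD values (difference 0.009). On 215446_s_at it read 4.28 and 4.42 in KD and 3.90 and 3.85 in OE cells. These did not overlap, with a difference of -0.47 ± 0.09 (SE, n = 2 per group, limma adjusted p = 0.0754; 1 of 3 LOX probe sets with an unadjusted p under 0.05). The 204298_s_at values overlapped, with a difference of -0.032.

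**Figure D2:**
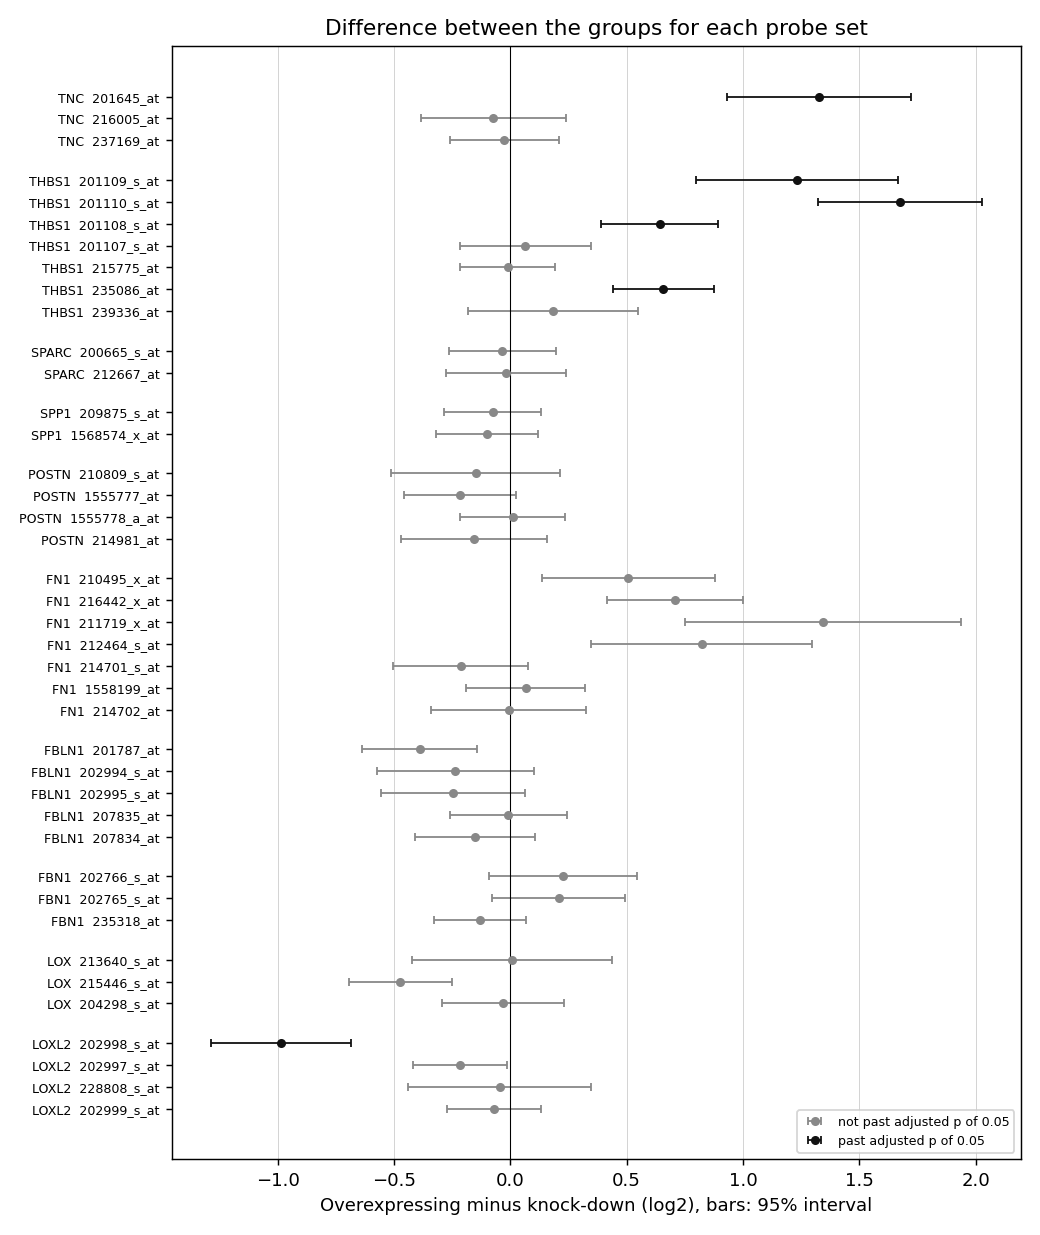
Difference between the groups (OE minus KD, log2) for each of the 40 probe sets, with 95% intervals from limma, black where the adjusted p is under 0.05. THBS1 has 4 and TNC 1 black point to the right of 0, LOXL2 has 1 to the left, and 4 FN1 intervals lie above 0 without passing the threshold.

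With 2 arrays per group the smallest exact two-sided permutation p for a single value is 0.333, so these calls rest on the spread that limma shares across probe sets. Leaving out any 1 of the 4 arrays ended all 6 calls, with limma adjusted p of 0.0684 to 0.387 and the remaining single array of a group assumed to vary like the others. The same omissions left 15 to 61 of the 1078 calls over the whole table. Without 1 array, THBS1 201110_s_at differed by 1.48 to 1.87, TNC 201645_at by 1.09 to 1.56 and LOXL2 202998_s_at by -1.10 to -0.87. The groups did not overlap on any of the 6 probe sets, so leaving out 1 array could not change a direction.

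**Figure D3:**
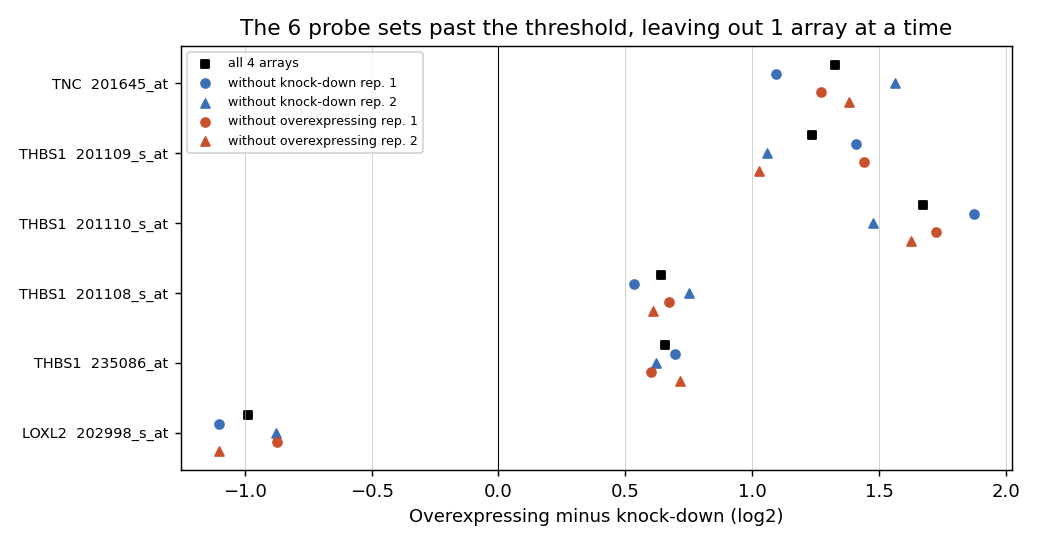
Difference between the groups (OE minus KD, log2) for the 6 probe sets past the threshold, from all 4 arrays (squares) and with 1 array left out (blue for KD, red for OE, circles for replicate 1, triangles for replicate 2). The groups do not overlap on these 6 probe sets, so each must stay on its side of 0. The calls end whichever array is left out.

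Other genes of the same matrix system were taken from 5 lists and counted by the probe set with the highest mean per gene. Of 101 genes measured, 9 rose and 0 fell in limma, compared with 1.86% of all genes called higher and 0.996% called lower. At an unadjusted p under 0.05 in limma, 24 were higher and 11 lower, where 16.4% of all genes passed that limit in either direction. The medians of the lists lay between 0 and 0.087, against -0.019 over all genes. A further 5 genes passed on a weaker probe set but not on the one with the highest mean, all of them higher in OE cells. Counted by any probe set, 14 of the 101 genes (13.9%) rose and 0 fell, compared with 2.62% and 1.22% of all genes. The lists were chosen with earlier results of these data known, so these shares cannot test whether the matrix system differs from other genes.

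Among 22 other matricellular genes 2 rose, 0 fell and 20 did not pass (median 0.007). SPOCK1, a testican proteoglycan related to SPARC, read 8.17 and 8.29 in KD and 9.84 and 9.88 in OE cells (log2 difference 1.63 ± 0.09, SE, limma adjusted p = 9.72e-04). CCN2, a connective tissue growth factor gene, read 7.21 and 7.10 against 8.31 and 8.38 (difference 1.19, limma adjusted p = 0.0028). TGFBI, a relative of periostin induced by TGF-beta, read 10.43 and 10.68 in KD and 10.15 and 10.38 in OE cells and did not pass (difference -0.29, limma adjusted p = 0.368). CCN3, another gene of the CCN family, passed on its weaker probe set 214321_at, at 3.68 and 4.08 in KD and 4.77 and 5.09 in OE cells (difference 1.05, limma adjusted p = 0.0445).

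Of 22 measured genes of elastic fibres, fibulins and fibronectin-associated proteins, 2 rose, 0 fell and 20 did not pass (median 0.04). FBN2, encoding fibrillin-2, read 4.47 and 3.96 in KD and 5.28 and 5.55 in OE cells (difference 1.20, limma adjusted p = 0.041). Its other two probe sets differed by 0.073 and 0.19. ADAMTSL4, encoding a protein of fibrillin microfibrils, read 5.89 and 5.95 against 6.51 and 6.52 (difference 0.60, limma adjusted p = 0.0263), and both of its probe sets passed. Of 19 cross-linking and collagen-modifying enzymes 1 rose, 0 fell and 18 did not pass (median 0.036). It was TGM2, a transglutaminase that cross-links fibronectin, at 7.23 and 7.17 in KD and 8.57 and 8.46 in OE cells (difference 1.32, limma adjusted p = 0.00204). The other 3 probe sets of TGM2 differed by -0.13 to 0.42 and did not pass. On weaker probe sets, LOXL4, a further lysyl oxidase, rose by 0.77 (227145_at, limma adjusted p = 0.0220), and TLL1, a protease related to BMP1, by 0.67 (1555071_at, limma adjusted p = 0.0249).

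Of 17 measured cell surface receptors of the member proteins 1 rose, 0 fell and 16 did not pass, with a median of 0 to 2 decimals. EGFR, to which EGF-like repeats of tenascin-C can bind, read 7.73 and 7.79 in KD and 8.40 and 8.55 in OE cells (difference 0.71, limma adjusted p = 0.022). Only that 1 of the 9 EGFR probe sets passed. ITGB1, the integrin chain shared by many fibronectin receptors, read 12.35 and 12.33 against 12.26 and 12.17 (difference -0.13, limma adjusted p = 0.566). CD44, a receptor of osteopontin, read 9.51 and 9.47 in KD and 9.22 and 9.28 in OE cells (difference -0.24, limma adjusted p = 0.256). Its 13 probe sets differed by -0.38 to 0.19 and none passed, though on most of them both OE values were below both KD values.

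Of 21 measured regulators known to act on genes of the matrix, 3 rose, 0 fell and 18 did not pass (median 0.087). They were SNAI2, a repressor of epithelial genes (6.38 and 6.13 in KD, 7.41 and 7.62 in OE cells, difference 1.26), TGFBR2, a TGF-beta receptor (difference 0.61), and JUN, a subunit of AP-1 (difference 0.56). The limma adjusted p was 0.00861, 0.0395 and 0.0298. A weaker probe set of TGFBR2 differed by -0.080, and those of JUN by 0.007 to 0.42, none of them past the threshold. RUNX2, a regulator of bone matrix genes, SPP1 among them, passed on 1 of its 6 probe sets and not on the brightest. On 232231_at it read 3.17 and 2.70 in KD and 8.03 and 8.18 in OE cells, a difference of 5.17 (limma adjusted p = 1.64e-04). TGFB2, encoding a TGF-beta ligand, passed on 1 of 5 (228121_at, difference 0.63, limma adjusted p = 0.0485). The 9 calls made on the brightest probe sets were all lost whichever array was left out (limma adjusted p 0.0635 to 0.406). The RUNX2 call was kept without either KD array and lost without either OE array (limma adjusted p 0.0257 to 0.0817). Those of CCN3, LOXL4, TLL1 and TGFB2 on weaker probe sets were lost without any 1 array.

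**Figure D4:**
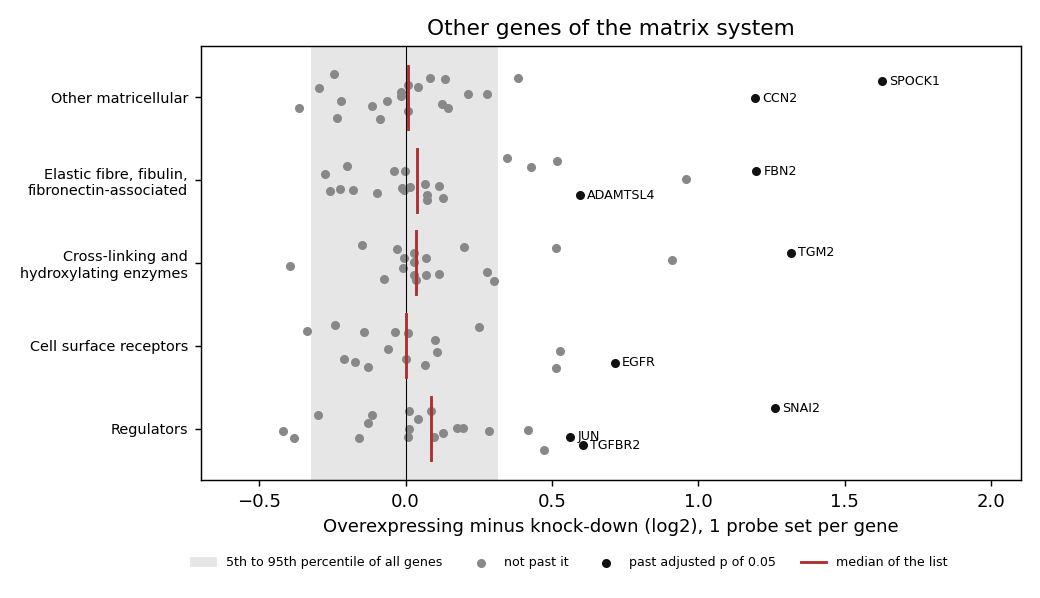
Difference (OE minus KD, log2) of 101 other matrix system genes by list, 1 probe set per gene, with genes past an adjusted p of 0.05 in black and named, the list's median as a red line and the 5th to 95th percentile of all genes (-0.32 to 0.31) shaded. The 9 named genes lie to the right of the shading, and each list's median lies within it.

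The identity of the cells was checked with marker lists, counted by the brightest probe set of each gene. Keratin genes KRT8 and KRT18 of simple epithelium were at 13.02 and 13.86 (KD means) and 12.91 and 13.82 (OE means). KRT20, a keratin gene of mature colon epithelium, had a mean of 2.97 in each group. Of 12 colon epithelium markers, EPCAM and KRT19 rose (differences 5.05 and 4.38, limma adjusted p = 5.44e-05 for both) and 0 fell. Their KD means were low, at 3.73 and 4.70, against OE means of 8.78 and 9.08, so both folds depend on the floor of the scale. CDH1 and CDH17 of the same list had KD means of 4.997 and 4.74 and OE means of 5.59 and 4.81. Apart from KRT8 and KRT18, no gene of the list had a KD mean above the 6.88 of CDX1. VIL1, encoding villin of the brush border, passed on 2 of its 4 probe sets, though not on the brightest (differences 0.78 and 0.85, limma adjusted p = 0.0109 and 0.0154). The mean log2 level of that list was 6.56 to 6.63 in the KD and 7.46 to 7.48 in the OE arrays, but its median difference was 0.046, with 5 of the 12 genes below 0. Of 28 measured markers of fibroblasts, endothelium and leukocytes, 0 passed in limma on the brightest probe set and 2 had an unadjusted p under 0.05. The shares of all genes were 2.86% and 16.4%. LUM, encoding the stromal proteoglycan lumican, passed on the weaker of its 2 probe sets. On 201744_s_at it read 2.48 and 2.66 in KD and 4.82 and 4.65 in OE cells, a difference of 2.16 (limma adjusted p = 7.93e-04). The LUM and VIL1 calls were lost whichever array was left out. The mean over the brightest probe sets of 12 fibroblast and stroma markers was 6.23 and 6.27 in KD and 6.31 and 6.26 in OE cells. Of these, COL1A1 differed by 0.15 and VIM by -0.022, and both had high values in both groups. The means were 9.37 in KD and 9.52 in OE cells for COL1A1, and 12.72 and 12.69 for VIM. No other marker of that list had a KD mean above the 7.06 of PDGFRB. The 2 markers with an unadjusted p under 0.05 in limma were ACTA2 (difference 0.37) and PDGFRB (difference -0.36). The part of the markers in the members' differences was not tested. In RNA from whole cultures, a change in the number of expressing cells and a change in RNA per cell cannot be told apart.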

How the data were processed

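Total RNA of 4 SW480 samples was labelled with biotin and hybridised to Affymetrix expression arrays, 1 array per sample. The deposited values are on the log2 scale. Per the submitters' processing notes, the authors made them with affy's RMA, which corrects background, equalises array distributions and summarises probes; versions are not given in these sources. They were used as deposited, after leaving out 62 control probe sets. Symbols came from the platform's annotation, updated by gene identifier through RefSeq; 41091 probe sets had 1 symbol, for 19775 genes. Replicate numbers were taken from the titles. Promoter sequences came from RefSeq (GRCh38.p14).

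OE and KD arrays were compared with limma (version 3.58.1, R 4.3.3): lmFit and eBayes with default settings on 54613 probe sets, two-sided, Benjamini-Hochberg adjusted over all of them, threshold 0.05. There were 2 residual degrees of freedom and a prior worth 3.91. No filter on dim values was used. The procedure was tested on simulated data. The number of arrays limits the precision.

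Named were all probe sets of the 10 members, by array for the one with the highest mean and those past the threshold, up to 6 genes past the threshold per context list, and CD44, ITGB1 and TGFBI. Other probe sets given by array and the marker genes were chosen after their values were seen. Members and lists were chosen with earlier results of these data known. Tried besides were robust moderation with an intensity trend, a replicate block, centring, a second quantile normalization, other sets of probe sets, tests per gene, other thresholds and leaving out each array.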

Additional observations from a re-analysis of the deposited data

How the results depend on the processing

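Over all probe sets 1078 passed, 6 of them of member genes, and 3 members passed by their brightest probe set. These counts became 386, 1 and 0 at an adjusted p of 0.01. The whole-table count became 1916 at 0.10. With an intensity trend and robust moderation 2437 probe sets passed, 10 of them of members. With the replicate number as a replicate block 443 passed, 1 of them of a member (LOXL2), which also left 1 member gene; the samples share only a number, as the labels state no pairing and the deviations of same-numbered arrays correlated at 0.146. Leaving out 1 array left 15 to 61 probe sets, with 0 in every case for members and for each context list. The filter on dim probe sets took TNC 201645_at and THBS1 235086_at out of the test, while FN1 216442_x_at and 211719_x_at passed, so 6 member probe sets passed there too. For elastic fibre genes (2 called) the count was 5 with the trend, 0 with the replicate block, 5 by brightest probe set adjusted over genes and 4 by the mean of the probe sets. For enzymes (1) it was 2 with the trend and 3 by the mean, and for other matricellular genes (2) it was 5 by the mean. For receptors (1) it was 4 with the trend and 0 with the replicate block, and for regulators (3) it was 7, 0 and, by brightest probe set over genes, 5. The cause of these shifts was not tested.

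No called member changed direction, but most of these alternatives could not have changed it. The thresholds, trend, replicate block and other sets of probe sets leave each difference as it is. Leaving out an array cannot reverse groups that do not overlap. Centring moved the smallest called difference, of THBS1 201108_s_at, only from 0.64 to 0.63. The mean of the probe sets could have changed a sign, and gave 0.41 for TNC, 0.63 for THBS1 and -0.33 for LOXL2. The sign of values near 0 changed for LOX 213640_s_at (-0.0065 centred, -0.0084 after quantile normalization, -0.17 as the mean of the probe sets), POSTN 1555778_a_at (-0.0052 centred) and FN1 214702_at (0.012 after quantile normalization). It also changed without some array for TNC 216005_at (-0.24 to 0.091), TNC 237169_at (-0.10 to 0.048), THBS1 201107_s_at (-0.060 to 0.19), THBS1 215775_at (-0.042 to 0.019), THBS1 239336_at (-0.032 to 0.40), SPARC 200665_s_at (-0.096 to 0.027), SPARC 212667_at (-0.12 to 0.080), POSTN 210809_s_at (-0.36 to 0.064), POSTN 1555778_a_at (-0.068 to 0.088), POSTN 214981_at (-0.33 to 0.016), FN1 1558199_at (-0.032 to 0.17), FN1 214702_at (-0.17 to 0.16), FBLN1 207835_at (-0.12 to 0.10), LOX 213640_s_at (-0.24 to 0.25), LOX 204298_s_at (-0.14 to 0.074) and LOXL2 228808_s_at (-0.23 to 0.14). RMA values carry no background call, which limits what the low values of POSTN, SPP1 and TNC can show.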

Other observations

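THBS1 and FN1 each had 4 of 7 probe sets with OE values above both KD values, whereas 3 of 7 did not separate upward. In that direction 10 of the 40 member probe sets (25%) and 18.7% of all probe sets separated. THBS1 and FN1 were singled out after their values were seen, and probe sets of 1 gene are not independent. These shares therefore cannot test whether the genes differ from others. FN1 and THBS1 probe sets with separate groups differed by 0.51 to 1.34 and by 0.64 to 1.67. Among the 13 member probe sets with an unadjusted p under 0.05 (32.5%, against 14.6% of all probe sets), 9 were upward, all from THBS1, FN1 and TNC, and 4 were downward, from LOXL2, LOX and FBLN1. In 3 of the 40 member probe sets 2 arrays had the same deposited value, as in 4.25% of all probe sets.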
